A study of Mus musculus with 4 samples.

Results

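Small RNA libraries of cultured mouse synovial fibroblasts, which line the joint cavity and build its matrix, were read for 1 cluster of miRNA genes, the hairpins mir-532, mir-188, mir-362, mir-501 and mir-500, which lie in the X-linked gene Clcn5. Members were every listed row whose name, without species prefix and arm mark, is miR-188, miR-362, miR-500, miR-501 or miR-532. This gave 9 rows from 5 hairpins, out of 590 miRNA names listed in at least 1 library. Each hairpin was listed with a 5p and a 3p arm except mir-500, which had 1 row with no arm mark.

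There were 2 groups of 8-week-old mice on a mixed CBA/J and C57BL/6/J background, with 2 biological replicates each per the series design. TghuTNF mice carry a human TNF transgene and serve as a model of arthritis, and their wild-type (WT) littermates were the controls. The fibroblasts of both groups came from digested hind joints, had been cultured for 4 passages away from the joint, and were mostly positive for the fibroblast surface marker CD90.2 with few Mac1-positive cells, per the labels' protocols. The labels do not name the promoter of the transgene or say whether a culture pooled several mice.

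A miRNA is cut from a hairpin as a short duplex, of which 1 strand, the arm from the 5′ or the 3′ side, is usually kept in the silencing complex. Bases 2 to 8 of that strand, the seed, pair with target mRNAs. Hairpins inside an intron are often transcribed with their host gene, so miRNAs of 1 intron can be made from 1 primary transcript, although later steps may set each mature level separately. Clcn5 encodes a chloride and proton exchanger of endosomes, known for its loss in Dent disease of the kidney. Among the members, miR-362-5p is known to repress Cyld, a brake on NF-kB signalling, and miR-188-5p has been studied in rheumatoid synovial fibroblasts and in the choice of marrow stromal cells between bone and fat.

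The position of the hairpins matched the label of the cluster. In GRCm38.p6 the hairpins lie on the minus strand of chromosome X in transcription order mir-532 (chrX:7248402-7248497), mir-188 (chrX:7247989-7248056), mir-362 (chrX:7241982-7242046), mir-501 (chrX:7241243-7241351) and mir-500 (chrX:7237683-7237774). They span 10815 bases. The gaps between neighbours are 345, 5942, 630 and 3468 bases. GENCODE places all 5 on the strand of Clcn5 (chrX:7153810-7319358), outside its exons, in the same intron stretch of 103648 bases in 3 of its 5 annotated transcripts.

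The mature sequences are shown because they decide which members could share reads and targets. RefSeq (GRCm38.p6) gave a mature sequence by exact name for 7 of the 9 rows, and both arms of mir-500. miR-532-5p had no entry. Capitals mark the seed.
miR-362-5p: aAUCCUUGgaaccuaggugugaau
miR-500-5p: aAUCCUUGcuaucugggugcuuagu
miR-501-5p: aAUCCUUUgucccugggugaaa
miR-188-5p: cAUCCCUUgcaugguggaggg
miR-501-3p: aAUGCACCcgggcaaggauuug
miR-500-3p: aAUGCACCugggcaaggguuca
miR-362-3p: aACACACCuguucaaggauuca
miR-188-3p: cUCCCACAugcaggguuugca
miR-532-3p: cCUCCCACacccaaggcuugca

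Among these sequences, 2 pairs share a seed. miR-362-5p and miR-500-5p share AUCCUUG, and miR-501-3p and miR-500-3p share AUGCACC. Outside the cluster, miR-329-3p, from a hairpin on chromosome 12, has the seed ACACACC of miR-362-3p, and miR-7061-3p has the seed AUCCCUU of miR-188-5p. The closest printed pairs were miR-501-3p with miR-500-3p, and miR-188-3p with miR-532-3p. Each pair differed at 4 bases when aligned without gaps, over 22 bases for the first pair and 21 for the second. The authors' matching allowed at most 2 mismatches. A read that matched one of these sequences perfectly over its whole overlap with another could thus not be counted for that other. A shorter read could miss some of the differing bases, and the sharing of such reads was not tested.

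**Figure D1:**
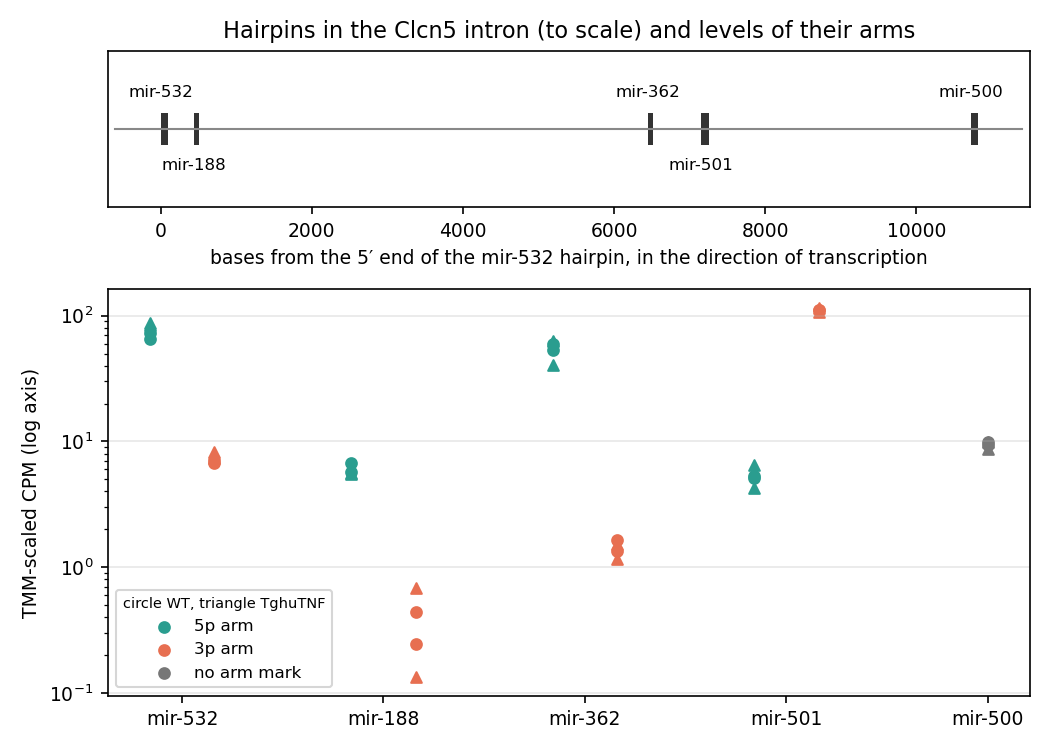
Upper panel: the 5 hairpins to scale, with distance in bases from the 5′ end of the mir-532 hairpin on the x axis. Lower panel: TMM-scaled CPM (log axis) of each listed arm in each library, circles for WT and triangles for TghuTNF. The 5p arm is the higher one for mir-532, mir-188 and mir-362, and the 3p arm for mir-501.

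The files gave 16680860 to 27362819 matches per library, and the cluster took 0.0256% to 0.0299% of them. Levels below are counts per 1000000 matches (CPM) after TMM scaling. A count of 0 would allow up to 3 counts, or 0.110 to 0.180 unscaled CPM depending on the library. All 7 mesenchymal miRNAs listed as markers of the labelled cell type were present, with a summed unscaled level of 281296 to 308852 CPM. By edgeR's adjusted threshold, 1 of them was higher in TghuTNF (miR-22, log2 fold change 1.02) and 1 lower (miR-214, -0.93). Of the markers of other cell types, edgeR's adjusted threshold was passed by 0 of 5 tested muscle miRNAs, 1 of 2 endothelial and 1 of 4 epithelial (lower in TghuTNF), and 1 of 3 blood cell and 1 of 4 neural (higher), beside 13.3% of all miRNAs. Their summed levels did not overlap between the genotypes, which was also so for 60.6% of all miRNAs tested one by one, and the sums were not tested. The sum of 2 endothelial miRNAs was 110.4 to 124.8 CPM in WT and 65.4 to 69.4 in TghuTNF, that of 7 epithelial miRNAs 66.7 to 72.7 and 30.1 to 37.1, that of 5 muscle miRNAs 2389.9 to 3086 and 1749.7 to 2074, that of 6 blood cell miRNAs 6.63 to 15.9 and 21.2 to 29.1, and that of 5 neural miRNAs 285 to 319 and 430.5 to 462. The lower epithelial sum did not hold for each of its miRNAs. Among the 4 tested, miR-203 was the one that passed as lower (edgeR log2 fold change -1.43). The values of miR-200b, miR-200c and miR-141 were positive (0.44, 0.30 and 0.46) and did not pass. The part of these markers in the levels below was not tested. TghuTNF replicate 2 stood apart in its mismatch classes, with 11.7% of all matches holding 2 mismatches against 8.21% to 8.73% in the other libraries.

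No member of the cluster passed the test of a difference between the genotypes. With edgeR's quasi-likelihood test, 0 of 9 members passed an adjusted p of 0.05 and 0 had an unadjusted p under 0.05. Over all 442 miRNAs tested, 13.3% passed the adjusted threshold and 29.0% had an unadjusted p under 0.05. DESeq2 and limma-voom also called 0 members, though DESeq2 gave miR-188-3p no adjusted p. All 9 members were past the filter on low counts. Their log2 fold changes, TghuTNF over WT, ran from -0.17 to 0.32 with a median of 0.01, beside a median of 0.006 over all miRNAs tested. For 7 of the 9, the 95% interval of the difference lay within 1 on the log2 scale, a 2-fold change, on both sides of 0. Differences inside these intervals could not be told from 0 with 2 cultures a group.

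**Figure D2:**
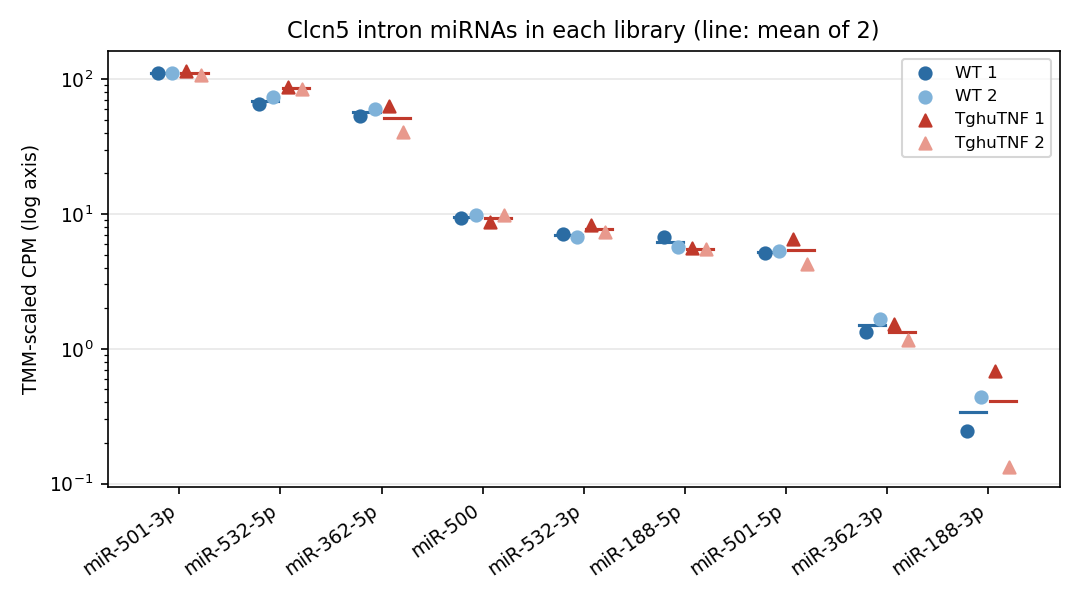
TMM-scaled CPM (log axis) of the 9 members in each library, ordered by mean level. Circles are WT, triangles TghuTNF, and the short lines are the means of 2 libraries. miR-501-3p sits near 111 CPM in both genotypes, and miR-188-3p is under 1 CPM in every library.

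The most abundant member was miR-501-3p, known to regulate the glutamate receptor subunit GluA1 in neurons. It stood at 112 and 110.5 CPM in the WT libraries and at 116 and 108 in the TghuTNF libraries. The TghuTNF libraries lay on either side of both WT libraries, and the highest library exceeded the lowest by a factor of 1.07. The log2 fold change was 0.01 ± 0.20 (SE), with a 95% interval from -0.44 to 0.46 (edgeR adjusted p = 0.98). Its sign was negative with library size scaling and with upper quartile scaling (-0.0039 and -0.096). The other arm of the same hairpin, miR-501-5p, stood at 5.11 and 5.33 CPM in WT and at 6.52 and 4.26 in TghuTNF. Both WT values lay between the TghuTNF values, and the log2 fold change was 0.05 ± 0.31 (edgeR adjusted p = 0.94), or -0.045 with upper quartile scaling.

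mmu-miR-532-5p (miR-532-5p), which is known to repress the transcription factor Runx3, was the second most abundant member. Its level was 64.9 and 73.1 CPM in WT and 87.0 and 85.1 in TghuTNF. Both TghuTNF libraries were above both WT libraries, and so were their counting intervals without scaling: 60.1 to 67.9 and 71.7 to 78.3 CPM in WT, and 84.3 to 91.4 and 79.8 to 87.3 in TghuTNF (exact 95% binomial, counting error only). The WT mean was 69.0 ± 5.81 CPM and the TghuTNF mean 86.1 ± 1.37 CPM (SD, n = 2), and the fitted ratio was 1.25. The log2 fold change of 0.32 ± 0.21 (SE) had a 95% interval from -0.15 to 0.79 and did not pass (edgeR adjusted p = 0.35, unadjusted p = 0.17). It was positive under each of the 13 alternatives tried, from 0.21 to 0.40, and the lowest adjusted p among them was 0.27. The partner arm miR-532-3p stood at 7.12 and 6.80 CPM in WT and at 8.22 and 7.37 in TghuTNF. These groups did not overlap either, and the log2 fold change was 0.17 ± 0.27 (edgeR adjusted p = 0.74).

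miR-362-5p, the third most abundant member, stood at 53.6 and 60.1 CPM in WT and at 62.8 and 40.7 in TghuTNF. The TghuTNF libraries were the highest and the lowest of the 4. The low value came from TghuTNF replicate 2, whose counting interval without scaling, 37.4 to 42.6 CPM, was below those of the other libraries, which began at 49.4 CPM or above. The log2 fold change was -0.13 ± 0.26 (edgeR adjusted p = 0.77). It was 0.12 without TghuTNF replicate 2 and -0.56 without TghuTNF replicate 1 (edgeR adjusted p = 0.075), each with 1 library left in that genotype. miR-362-3p stood at 1.34 and 1.65 CPM in WT and at 1.52 and 1.15 in TghuTNF, with overlapping groups and a log2 fold change of -0.17 ± 0.39 (edgeR adjusted p = 0.81). The row miR-329, whose RefSeq 3p arm has the same seed, stood at 0.79 and 0.66 CPM in WT and at 3.55 and 10.1 in TghuTNF, and its row carries no arm mark.

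miR-188-5p stood at 6.69 and 5.73 CPM in WT and at 5.58 and 5.51 in TghuTNF. Both TghuTNF libraries were below both WT libraries by a small margin, and the log2 fold change was -0.16 ± 0.28 (edgeR adjusted p = 0.75). Its partner miR-188-3p was the scarcest member, with 4 and 12 matches in WT and 19 and 3 in TghuTNF, so that 1 library was at the 3 counts that a count of 0 allows. Its 95% interval of -1.50 to 2.00 on the log2 scale holds a 2-fold change in either direction (edgeR adjusted p = 0.86). Its log2 fold change of 0.25 became -1.48 without TghuTNF replicate 1. miR-500, listed without an arm, stood at 9.31 and 9.81 CPM in WT and at 8.66 and 9.86 in TghuTNF. Its groups overlapped, with a log2 fold change of -0.048 ± 0.26 (edgeR adjusted p = 0.93).

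**Figure D3:**
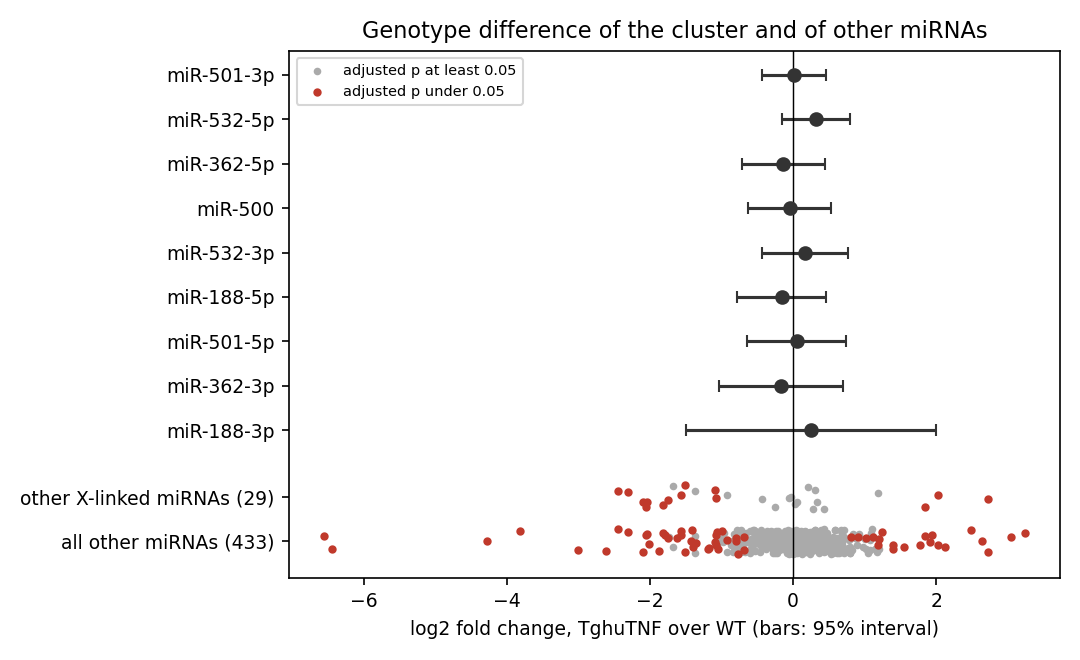
The x axis is the log2 fold change, TghuTNF over WT. Black points are the 9 members with 95% intervals, all of which hold 0, and dots show 29 other X-linked miRNAs and all 433 other miRNAs tested, red where the adjusted p was under 0.05.

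Both TghuTNF libraries were on 1 side of both WT libraries for 3 of 9 members, 2 higher (miR-532-5p and miR-532-3p) and 1 lower (miR-188-5p). The share over all miRNAs tested was 60.6%, made up of 30.8% higher and 29.9% lower. The summed level of the 9 members was 259.8 and 273.4 CPM in WT and 296.8 and 261.8 in TghuTNF, so the groups overlapped, with means of 266.6 ± 9.57 and 279.3 ± 24.8 CPM (SD, n = 2).

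Whether the members of the intron moved together was read from each member's log2 level in a library minus its mean over the 4 libraries. In TghuTNF replicate 1, 6 of 9 members had their highest level, against 20.8% of all miRNAs tested. In TghuTNF replicate 2, 6 of 9 had their lowest level, against 32.6% of all. miR-362-5p moved from 0.23 above its mean in TghuTNF replicate 1 to -0.40 in TghuTNF replicate 2, and miR-501-5p from 0.31 to -0.29. miR-532-5p did not follow them and stood at 0.18 and 0.14. Its partner arm miR-532-3p was also above its mean in both, at 0.16 and 0.002. miR-500 went the other way, from -0.12 to 0.07. Only miR-188-3p, miR-362-5p, miR-501-3p and miR-501-5p were both highest in TghuTNF replicate 1 and lowest in TghuTNF replicate 2. Of these, miR-188-3p rested on 19 and 3 matches, and miR-501-3p moved only from 0.06 to -0.05. miR-362-3p, which was highest in WT replicate 2, went from 0.11 to -0.27 on 42 and 26 matches. A swing of some size with more matches than those of miR-188-3p was thus seen for miR-362-5p, miR-362-3p and miR-501-5p. It lay between the 2 TghuTNF cultures, of which replicate 2 stood apart in its mismatch classes. These are descriptions of 4 libraries, and a correlation over so few was not computed.

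**Figure D4:**
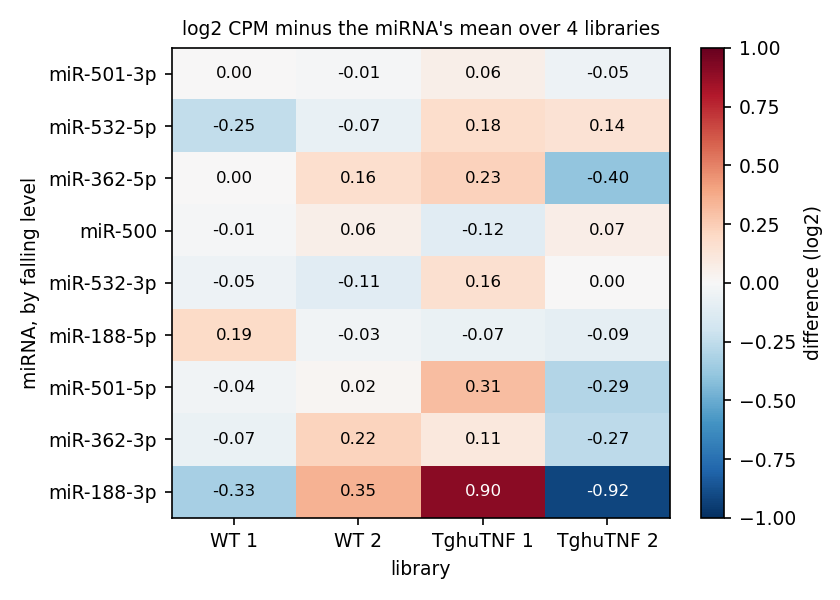
Rows are the 9 members by falling level and columns the 4 libraries, and each cell gives the log2 CPM minus that member's mean over the libraries (red above, blue below). TghuTNF 1 is mostly red and TghuTNF 2 mostly blue. miR-532-5p and miR-532-3p stay above their means in both, miR-532-3p by only 0.002 in TghuTNF 2.

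The ratios between members of the intron were not constant. miR-532-5p exceeded miR-362-5p by a factor of 1.21 and 1.22 in the WT libraries, 1.39 in TghuTNF replicate 1 and 2.09 in TghuTNF replicate 2. The ratio of miR-501-3p to miR-532-5p was 1.72 and 1.51 in WT and 1.33 and 1.27 in TghuTNF. For neither ratio did the groups overlap, and both hold miR-532-5p, whose own groups did not overlap. Over all 36 pairs of members, the groups did not overlap in the ratio for 10, of which 5 were among the 8 pairs with miR-532-5p and 5 among the 28 without it. Over all pairs of miRNAs tested, the share was 61.0%. The ratio of miR-501-3p to miR-188-3p, the most and the least abundant member, overlapped, at 458 and 251 in WT and 168 and 809 in TghuTNF. The ratios between hairpins were not tested. miR-501-3p, miR-532-5p and miR-362-5p together made up 88.5% to 89.5% of the cluster's level in every library.

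miRNAs outside the cluster were ranked by the likeness of their pattern to miR-532-5p, measured as the Euclidean distance between the mean-centred log2 CPM over the 4 libraries. The nearest were miR-210 (distance 0.058), miR-22* (0.090), miR-125b-5p (0.10), miR-452 (0.15) and miR-29a* (0.15). Of the other members, miR-532-3p, its own partner arm, came closest, at rank 33 of 441, followed by miR-501-3p at 62 and miR-500 at 104. miR-501-5p, miR-362-3p, miR-188-5p and miR-362-5p took ranks 163, 175, 180 and 221, and miR-188-3p rank 372. Members with few counts carry more counting error in this distance. mir-188, the hairpin next to mir-532 in the intron, had its arms at ranks 180 and 372.

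The arms of the 4 hairpins with both listed kept their preference in every library. The 5p arm gave 96.5% and 92.9% of the matches of mir-188 in WT and 89.0% and 97.6% in TghuTNF. For mir-362 it gave 97.6% and 97.3% in WT and 97.6% and 97.2% in TghuTNF. For mir-532 it gave 90.1% and 91.5% in WT and 91.4% and 92.0% in TghuTNF. mir-501 had the opposite preference, with 4.38% and 4.60% of its matches from the 5p arm in WT and 5.33% and 3.80% in TghuTNF. The groups overlapped for each of the 4 hairpins. The log2 ratio of 5p to 3p changed between genotypes by -0.063 ± 0.70 (SE) for mir-188, 0.0021 ± 0.25 for mir-362, 0.0045 ± 0.28 for mir-501 and 0.16 ± 0.25 for mir-532. None passed limma's test with adjustment over all hairpins that had both arms past the filter (adjusted p 0.87 to 0.99). Over those hairpins, 0.0% passed and 5.66% had an unadjusted p under 0.05.

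Most members were counted mainly from reads with no mismatch. Over all libraries, 80.7% to 97.0% of the matches of 8 members were perfect, against a median of 63.8% over 399 names with at least 100 matches. miR-188-5p differed, with 20.2% perfect matches, and 19.8% of those names were lower still. In it, 28 of 110 and 38 of 156 matches were perfect in the WT libraries, and 23 of 154 and 21 of 124 in the TghuTNF libraries. These are shares of 25.5% (exact 95% binomial interval 17.6% to 34.6%) and 24.4% (17.9% to 31.9%) in WT, and 14.9% (9.71% to 21.6%) and 16.9% (10.8% to 24.7%) in TghuTNF. Both TghuTNF shares were lower than both WT shares, though the intervals of single libraries overlapped. Most of the rest had 1 mismatch, 77 and 108 matches in WT and 123 and 97 in TghuTNF. No other RefSeq mature miRNA came within 2 mismatches of the printed miR-188-5p, and the closest, miR-6914-5p, differed at 6 bases.

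**Figure D5:**
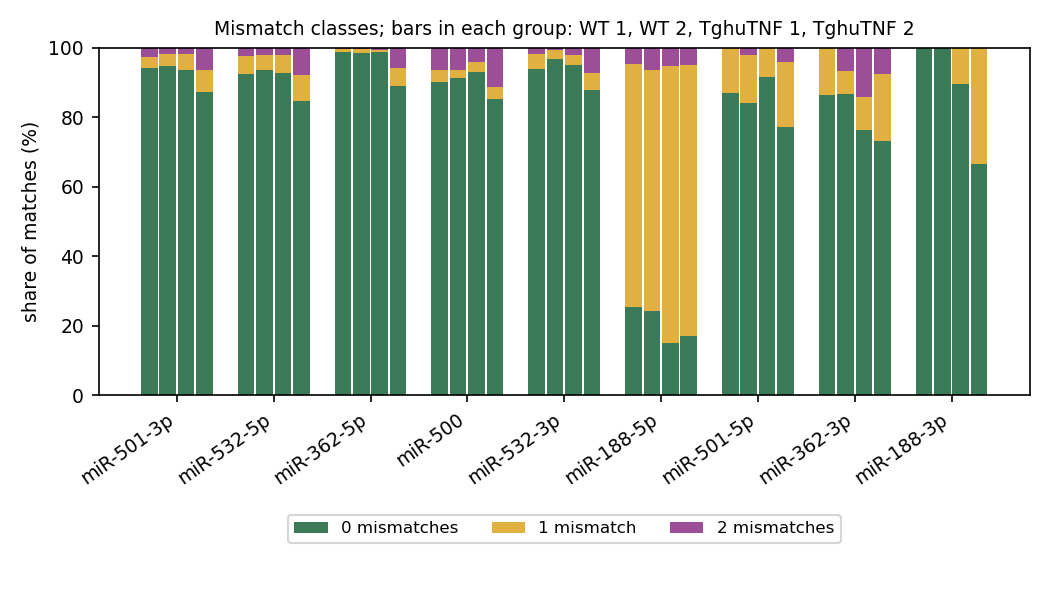
The y axis is the share of each member's matches (%) with 0, 1 and 2 mismatches, as stacked bars for WT 1, WT 2, TghuTNF 1 and TghuTNF 2 in that order. miR-188-5p is mostly 1-mismatch matches in every library, and TghuTNF 2 has the smallest perfect share for every other member plotted.

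A comparison of the odds of a perfect match was added after these values were seen. limma was fitted to the log2 odds of all 365 miRNAs with at least 20 matches in every library, which included 8 members. No member passed the adjusted threshold, nor did any miRNA (0.0%). Unadjusted p-values were under 0.05 for 2 members, miR-188-5p (-0.80 ± 0.26, SE; limma adjusted p = 0.38) and miR-362-3p (-1.04 ± 0.29; limma adjusted p = 0.34), against 6.3% of all. Genotypes did not overlap, with lower odds in TghuTNF, for 3 of the 8, against 26.8% of all. For 7 of the 8, the lowest odds were in TghuTNF replicate 2, as for 63.3% of all. In that library, 84.9% of the cluster's matches were perfect and 6.87% held 2 mismatches. The other libraries had 92.6% to 93.4% perfect and 1.79% to 2.13% with 2 mismatches. Over all matches, the perfect share was 66.0% there against 69.6% to 70.5%, and the 2-mismatch share 11.7% against 8.21% to 8.73%. The class shift of that library thus appeared in the table and in the cluster, and its size was not tested between them. The perfect share of miR-362-5p was 98.9%, 98.5% and 98.7% in the other libraries and 89.0% in TghuTNF replicate 2, the library in which its level was also lowest. The part of the class shift in that level was not tested.

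Counting perfect matches only left the calls as they were, with 0 of 9 members passing edgeR's test. For miR-188-5p the log2 fold change moved to -0.79 ± 0.37 (SE; edgeR adjusted p = 0.20), with 2.43 and 2.03 CPM (per 1000000 perfect matches, TMM-scaled) in WT and 1.18 and 1.39 in TghuTNF. For miR-532-5p it was 0.26 ± 0.22 (edgeR adjusted p = 0.48), with 85.6 and 99.7 CPM in WT and 114 and 107 in TghuTNF. For miR-362-5p it was -0.19 ± 0.28, and its level in TghuTNF replicate 2 was 53.8 CPM against 75.6 to 87.9 in the other libraries.

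Other miRNAs of the same chromosome differed between the genotypes. Of 29 tested X-linked miRNAs outside the cluster, 14 (48.3%) passed edgeR's adjusted threshold, against 13.3% of all miRNAs tested. The 3 higher in TghuTNF were miR-221, miR-222 and miR-223, and 11 were lower, with miR-322, miR-503 and miR-503* the lowest in p. Of the 11 lower, 8 came from 1 other cluster, the hairpins mir-322, mir-503, mir-351, mir-542, mir-450a and mir-450b, so these calls are not separate loci. Outside that cluster 6 of 19 passed, 3 in each direction. The lower ones include miR-676 and miR-676*, arms of the same hairpin, so these calls are not all separate loci either. The median log2 fold change of the 29 was -0.44, and 0.06 without that cluster, beside 0.01 for the Clcn5 cluster. Of 111 tested miRNAs whose hairpin lies in an intron of a protein-coding gene on the same strand, 2 were higher and 13 lower, a share of 13.5% beside the 13.3% over all, with a median of -0.032. The difference between these lists and the Clcn5 cluster was not tested.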

How the data were processed

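Small RNA of 4 libraries was analysed, 2 of WT and 2 of TghuTNF fibroblasts. With mimap (hash length 9), the authors matched reads of 37 bases to 707 mouse miRNAs, allowing 2 mismatches, and deposited raw counts of matches, in total and by mismatch class, per the file headers. Not given in the sources used here are the miRBase release, the trimming and how reads fitting several miRNAs were counted. Each class list is another deposited value, 3 counts joined by commas.

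Counts were filtered with filterByExpr (442 miRNAs kept), scaled with TMM and tested two-sided in R 4.3.3 by edgeR 4.0.16 (quasi-likelihood F test), with genotype as the only term and Benjamini-Hochberg adjustment over all 442 at 0.05. Arm ratios (pseudocount 0.5) and perfect-match odds were fitted with limma 3.58.1. DESeq2 1.42.0 was an alternative. The edgeR and limma fits were also run on simulated data, with the outcome not reported here. Intervals cover counting error only where stated; reads carry no molecular identifiers. RefSeq matched 463 of 590 names; for the X-linked and intronic lists, 26 of 363 hairpins were placed by their mature arms.

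The members and lists were chosen with earlier results of these data known. Named miRNAs include all members, their seed relatives, the 5 nearest patterns to miR-532-5p, up to 3 called X-linked miRNAs in each direction and some cell type markers. The labels share replicate numbers, with nothing to pair the cultures.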

Additional observations from a re-analysis of the deposited data

How the results depend on the processing

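No member was called under any of 13 alternatives (DESeq2, upper quartile factors, library size alone, a mean CPM of 10 or more, no filter, limma-voom, perfect matches only, 0 or 1 mismatch, each library left out, and a replicate block), and no arm ratio or perfect-match odds of a member under those run for them. The mean CPM filter kept 3 members and no hairpin of the cluster with both arms, so it gave no arm ratio. Upper quartile scaling moved the median of all miRNAs by -0.11 on the log2 scale. With 1 library left in a genotype, the lone library is assumed to vary like the others.

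Signs of uncalled values turned for miR-501-3p with library size only (-0.0039), upper quartile factors (-0.096) and perfect matches (-0.043), for miR-501-5p with upper quartile factors (-0.045), for miR-188-3p with limma-voom (-0.088) and for the mir-501 arm ratio with a pseudocount of 5 (-0.0038). Leaving out 1 library gave ranges on both sides of 0 for the log2 fold changes of miR-188-3p (-1.48 to 0.89), miR-362-5p (-0.56 to 0.12), miR-501-3p (-0.12 to 0.034) and miR-501-5p (-0.37 to 0.29). It did so for the arm ratios of mir-188 (-1.15 to 1.02), mir-362 (-0.12 to 0.12) and mir-501 (-0.25 to 0.26), and for the perfect-match odds of miR-362-5p (-3.20 to 0.044), miR-500 (-0.77 to 0.40) and miR-501-5p (-0.80 to 0.89). The cause was not tested.

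Over all miRNAs, 59 were called, against 93 with no filter, where more miRNAs were tested, and 20 with a minimum mean CPM of 10, where fewer were. Leaving out 1 library gave 49 to 153, the highest without TghuTNF replicate 1. The replicate block called 87 miRNAs and 0 members, with miR-532-5p at 0.32 (edgeR adjusted p = 0.40). The replicate numbers share no stated source: across 442 miRNAs, the difference of replicate 1 from 2 correlated at -0.088 between the genotypes. The depth limits miR-188-3p most, with 3 to 19 matches per library.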
